A study of Bos taurus with 16 samples.

Results

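The metallothionein family was followed in bovine liver, in animals whose hepatic *FGF21* expression was high or low. All rows of the deposited signal sheet whose gene symbol was *MT1A*, *MT1E*, *MT2A*, *MT3*, *MT4* or *MTF1* were taken, which gave 7 transcript clusters of 6 genes out of 20421 clusters on the array. A transcript cluster is the set of probes that reads 1 gene or transcript, and *MT1E* has 2 of them, called here the stronger and the weaker *MT1E* cluster after their mean signal. The family was selected on the signals of its members in the *FGF21* high and low groups, several of which differed, so the differences between the groups are given below as a description, with no test. Tests are given only for how the members varied together among the cows within each group, which that choice did not use, and for other genes. The lists of other genes were drawn up with earlier results of these data known. Some of their genes had already been reported to differ in this contrast, so counts over the lists are no independent test.

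Metallothioneins are small, cysteine-rich proteins that hold zinc and copper in clusters of thiolate bonds and so buffer the supply of both metals in the cell. The liver is a main site of *MT1* and *MT2* expression, and there their transcription is known to be raised by metals, by glucocorticoids and by inflammatory cytokines. *MTF1* encodes the transcription factor that senses zinc and binds the metal response elements of metallothionein promoters, *MT3* is known mainly from brain, and *MT4*, from work in mice, mainly from stratified squamous epithelium.

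Liver biopsies of 16 multiparous Holstein cows, all female, taken at week 1 postpartum were hybridised to 1 array each. The cows of the *FGF21* high group (n = 8) had the highest and those of the *FGF21* low group (n = 8) the lowest hepatic expression of *FGF21*, a hormone secreted by the liver, and all had been given the same total mixed ration. The groups therefore are the ends of a range of 1 transcript measured in the same organ, with no treatment behind them. *FGF21* itself averaged 7.28 ± 0.82 in the high group and 5.20 ± 0.30 in the low group (log2 signal, SD, n = 8 each), which only restates how the cows were picked.

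The array medians lay between 6.25 and 6.31 in the high group and between 6.26 and 6.34 in the low group. The mean signal of 7 hepatocyte markers was 12.36 to 12.53 in cows of the high group and 12.47 to 12.58 in cows of the low group, near the upper end of the scale. Values are log2 signals, so a difference of 1 stands for a 2-fold difference, and levels of different clusters are not set against each other because their probes differ. Fewer cells of a type and less RNA per cell cannot be told apart in such bulk samples.

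All metallothionein clusters lay on chromosome 18, on the minus strand, within 58679 bases. By the coordinates of the signal sheet, whose genome build the sources used here do not give, *MT1A* came first (24106860 to 24108451), followed by the weaker *MT1E* cluster (24112351 to 24114379), the stronger *MT1E* cluster (24117440 to 24118787), *MT2A* (24125366 to 24126333), *MT3* (24134104 to 24135544) and *MT4* (24163233 to 24165538). The stretches between neighbours ran from 3060 bases, between the *MT1E* clusters, to 27688 bases, between *MT3* and *MT4*. *MTF1* lay apart from them on chromosome 3, on the plus strand (108651328 to 108691380). The 2 *MT1E* clusters are thus separate places in the genome and not repeated probes for 1 gene. In the RefSeq gene table of assembly ARS-UCD2.0, 2 genes that carry *MT1E* as a synonym, *LOC613358* and *LOC768319*, also lie between *MT1A* and *MT2A*, but neither *MT1E* cluster could be tied to them by accession. Clusters were read by 8 (*MT1A*) to 29 (*MTF1*) probes, and the sheet marked none of its 20421 clusters as cross-hybridizing. Metallothionein genes resemble each other closely, and how much of a signal came from a neighbouring copy was not tested.

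*MT1A*, a metallothionein 1 gene, had signals of 10.96, 12.43 and 12.77 (lowest, median and highest) in cows of the *FGF21* high group, against 9.11, 11.09 and 12.20 in cows of the *FGF21* low group. In 5 of the 8 high cows the signal was above that of every low cow, and in 4 low cows it was below that of every high cow, so the groups overlapped in the remaining animals. The mean was 12.11 ± 0.68 in the high group and 10.71 ± 1.29 in the low group (SD, n = 8 each), a log2 fold change of 1.40 (SE 0.44) or an FC of 2.64, and all 8 high cows were above the low mean.

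The stronger *MT1E* cluster showed the widest range in the family. Its signals were 9.71, 11.32 and 12.02 (lowest, median and highest) in the high group, against 6.73, 9.74 and 11.18 in the low group. Again 5 high cows exceeded every low cow and 4 low cows fell short of every high cow. Group means were 11.10 ± 0.81 in the high group and 9.26 ± 1.84 in the low group (SD, n = 8 each), a log2 fold change of 1.84 (SE 0.60) or an FC of 3.58. From the lowest to the highest of the 16 cows the signal spanned 5.29 log2 units, which is 39.0-fold.

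The weaker *MT1E* cluster had signals of 4.68, 6.72 and 7.69 (lowest, median and highest) in the high group, against 4.14, 5.35 and 6.74 in the low group. Here only 6 of 8 high cows were above the low mean, since cows 2 and 3 of the high group had signals of 5.34 and 4.68. The means of 6.47 ± 1.02 in the high group and 5.40 ± 0.89 in the low group (SD, n = 8 each) gave a log2 fold change of 1.08 (SE 0.40) or an FC of 2.11. The sheet holds no detection calls, so whether the low signals of this cluster were above background is not known, and the FC carries that limit.

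*MT2A*, the metallothionein 2 gene, had signals of 10.47, 11.28 and 11.52 (lowest, median and highest) in the high group, against 8.61, 10.53 and 11.34 in the low group. All 8 high cows were above the low mean, and 4 low cows were below every high cow. It averaged 11.11 ± 0.42 in the high group and 10.19 ± 1.11 in the low group (SD, n = 8 each), a log2 fold change of 0.92 (SE 0.36) or an FC of 1.89. At the top end the groups were close, with 11.52 as the highest value among high cows and 11.34 among low cows.

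*MT3*, *MT4* and *MTF1* hardly varied. *MT3* ranged from 4.96 to 5.30 in the high group and from 5.02 to 5.30 in the low group, and its mean difference was -0.02 (SE 0.06), or 0.02 after a further quantile normalization. *MT4* had signals of 5.22, 5.46 and 5.70 (lowest, median and highest) in the high group, against 5.47, 5.63 and 5.79 in the low group. Its means of 5.47 ± 0.15 in the high group and 5.62 ± 0.09 in the low group (SD, n = 8 each) differed by -0.15 (SE 0.07), and 6 of 8 high cows were below the low mean. *MTF1*, the metal sensor, had signals of 6.93, 7.08 and 7.32 in the high group, against 6.77, 7.01 and 7.17 in the low group, with means of 7.09 ± 0.11 and 6.98 ± 0.14 (SD, n = 8 each; high group first) and a difference of 0.11 (SE 0.07). Likewise, whether *MT3* and *MT4* were above background in these livers is not known.

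**Figure D1:**
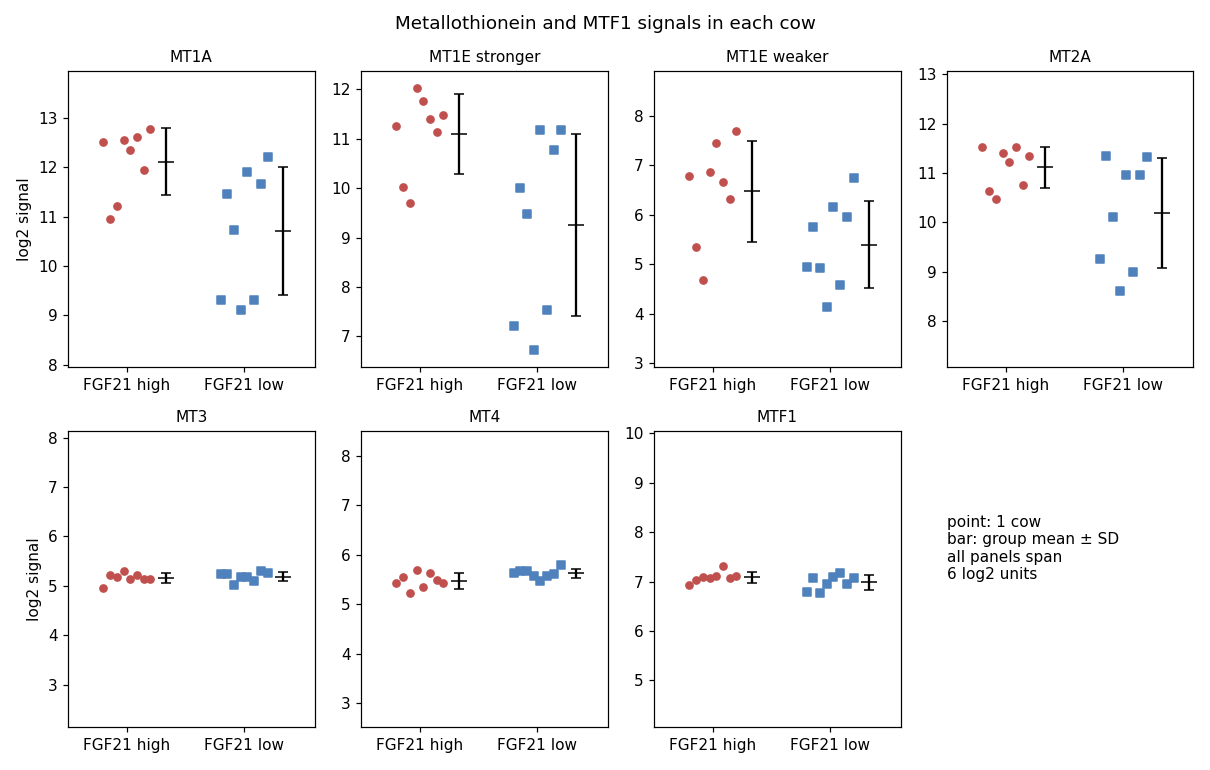
Log2 signals of the 7 clusters (y axis, 6 log2 units in every panel) in cows of the FGF21 high group (red circles) and the FGF21 low group (blue squares), with the group mean and SD as bars, n = 8 each. MT1A, both MT1E clusters and MT2A spread over 2.92 to 5.29 log2 units across the 16 cows, against 0.34 to 0.57 for MT3, MT4 and MTF1.

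Among the 7 clusters, 4 were higher by an FC above 1.2 in the high group and 0 were lower by as much, where 1.94% of all clusters were higher and 2.15% lower by that margin. An FC above 2 was seen for 3 of 7, against 0.0343% of all clusters. Of the 7, 0 showed no overlap between the groups, against 0.0539% of all clusters. For 3 of 7, all 8 high cows lay above the low mean, as they did for 1.74% of all clusters. Nothing is read from these shares, because the same contrast had brought the family to attention.

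What the choice of the family did not fix is how far single cows lay from their own group. The SD among cows within a group, pooled over both groups, was 1.42 for the stronger *MT1E* cluster, 1.03 for *MT1A*, 0.95 for the weaker *MT1E* cluster and 0.84 for *MT2A*, while the median over all clusters was 0.18. From the most variable cluster down, these were ranks 7, 24, 31 and 46 of 20421. *MT3* (0.09), *MT4* (0.13) and *MTF1* (0.13) varied less among cows than the median cluster. The 4 clusters that differed most between the groups were also among the most variable within them, which the choice of the family may have favoured.

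The same animals were low for all 4 variable clusters. Cow 4 of the low group had the lowest signal of all 16 cows for each of them, and cows 4 and 6 were among the 3 lowest of 16 for each. For *MT1A*, cows 1, 4 and 6 of the low group lay between 9.11 and 9.32 and the next low cow, cow 3, at 10.73. For the stronger *MT1E* cluster the same 3 cows lay between 6.73 and 7.54 and cow 3 at 9.48. The other 5 low cows came in the same order, 3, 2, 7, 5 and 8 from low to high, for *MT1A* and for both *MT1E* clusters. Cow 8 of the low group, with the highest *MT1A* signal of its group at 12.20, was rank 6 of the 16 cows for *MT1A*. *MT2A* departed from this order in cow 2 of the low group, which was rank 5 of 16 for *MT2A* but rank 10 for *MT1A*. In the high group, cows 2 and 3 were the lowest for each of the 4 clusters, with *MT1A* signals of 10.96 and 11.21 and the next high cow at 11.95.

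Within each group the 4 variable clusters were related to each other across cows. Pearson correlations of all pairs of clusters were computed in each group, 42 in all, with exact two-sided permutation tests over every pairing of the 8 cows and Benjamini-Hochberg adjustment over the 42. All 12 correlations among *MT1A*, *MT1E* and *MT2A* passed. In the high group r was 0.81 to 0.92 (adjusted p 0.0173 to 0.0418, exact permutation, n = 8), and in the low group r was 0.92 to 0.99 (adjusted p 0.00313 to 0.0151, exact permutation, n = 8).

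*MT1A* and *MT2A* had r = 0.92 and Spearman's rho = 0.81 in the high group (p = 0.00288 and p = 0.0218, exact permutation, n = 8, adjusted p = 0.0173 and p = 0.114). In the low group r was 0.97 and rho 0.86 (p = 0.00104 and p = 0.0107, exact permutation, n = 8, adjusted p = 0.0109 and p = 0.09). *MT1A* and the stronger *MT1E* cluster had r = 0.90 and rho = 0.71 in the high group (p = 0.0115 and p = 0.0576, exact permutation, n = 8), and r = 0.99 and rho = 0.98 in the low group (p = 7.44e-05 and p = 0.000397, exact permutation, n = 8). The 2 *MT1E* clusters, 3060 bases apart, had r = 0.91 and rho = 0.88 in the high group and r = 0.92 and rho = 0.93 in the low group.

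In the high group these relations rested largely on cows 2 and 3. Without the 2 cows farthest from the median, r among the 4 clusters ranged from 0.31 to 0.87 in the high group (n = 6), where *MT1A* with *MT2A* kept 0.87 and *MT1A* with the stronger *MT1E* cluster had 0.36. In the low group it ranged from 0.88 to 0.99 (n = 6), where the cows left out differed by pair. They were cows 4 and 6 for pairs with *MT1A* and cows 1 and 4 for the stronger *MT1E* cluster with the weaker one or *MT2A*. For the weaker *MT1E* cluster with *MT2A* they were cows 4 and 8. Cow 1 or cow 6 thus stayed in each value, and a group of 5 cows is too small for a correlation of its own. Leaving out 1 cow at a time, all 6 pairs passed in the low group each time. In the high group 0 of 6 passed without cow 7, 1 without cow 2 or cow 3, 2 without cow 8 and 3 without cow 4. Over all such fits r lay between 0.68 and 0.96. Without cow 7 it was 0.84 to 0.95, so the passes lost there do not mark a weaker relation. By Spearman's rho, 0 of 6 pairs passed in the high group and 3 of 6 in the low group. The difference in r between the groups was not tested.

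**Figure D2:**
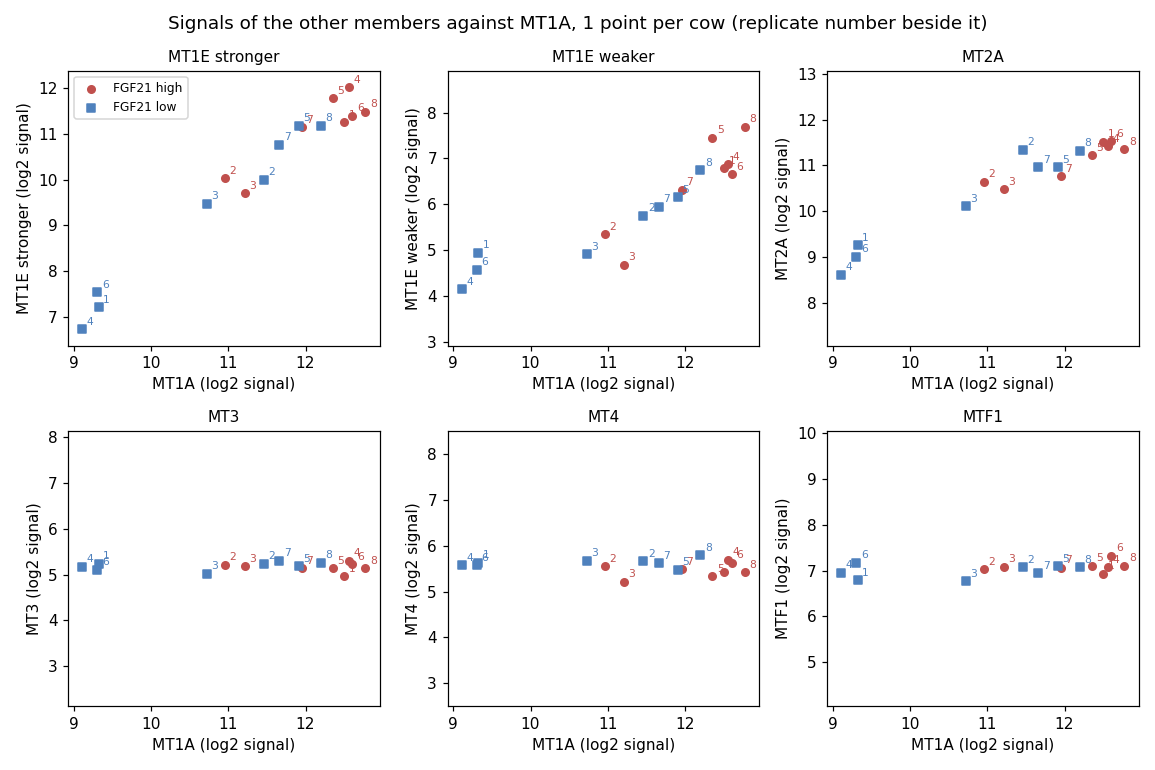
Log2 signal of each other cluster (y axis, 6 log2 units in every panel) against that of MT1A (x axis), 1 point per cow with its replicate number, FGF21 high group as red circles and FGF21 low group as blue squares. Both MT1E clusters and MT2A climb with MT1A in both groups, low cows 1, 4 and 6 form the lower left end, and MT3, MT4 and MTF1 run flat.

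None of the correlations that involved *MT3*, *MT4* or *MTF1* passed, 0 of 30, and 0 had an unadjusted p under 0.05 by the exact test or by Spearman's rho. Their r ranged from -0.20 to 0.56, with a lowest adjusted p of 0.496 (exact permutation, n = 8). *MT1A* and *MTF1* had r = 0.27 in the high group and r = 0.27 in the low group (adjusted p = 0.733 for both, exact permutation, n = 8). A group of 8 cows leaves room for moderate relations that such a test would miss, and without cows 4 and 6 the *MT1A* and *MTF1* correlation of the low group was 0.82 (p = 0.0333 before adjustment, exact permutation, n = 6).

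*MT1A* was then set against 23 genes of metal transport, glucocorticoid response, acute phase, antioxidant defence and ER stress within each group, 46 correlations in all. After adjustment 0 passed, and 4 had an unadjusted p under 0.05 (5 by Spearman's rho). *FGF21*, on which the cows were grouped, had r = 0.39 and rho = 0.33 with *MT1A* in the high group (p = 0.343 and p = 0.428, exact permutation, n = 8, adjusted p = 0.607 and p = 0.817). In the low group r was -0.19 and rho 0.02 (p = 0.595 for r, exact permutation, n = 8, adjusted p = 0.72). After a linear fit on the running number of the labels within the group, r was 0.88 in the high group (p = 0.00667 before adjustment, permutation of the residuals, n = 8), and again 0 of the 46 passed after adjustment. That p is approximate, because residuals of a fit are not freely exchangeable among cows. After adjustment, the order of the cows by *FGF21* within a group was not detectably that by *MT1A*. Cow 4 of the low group, lowest for *MT1A*, had an *FGF21* signal of 5.38, and cow 8, highest of the low group for *MT1A*, had 4.89. Each group holds only an end of the *FGF21* range, 4.78 to 5.51 in the low group, so a relation within a group could be missed. Whether *FGF21* signals that low were above background is not known.

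The strongest of the 46 was *TAT*, the tyrosine aminotransferase of hepatocytes, in the high group. There r was 0.86 and rho 0.88 (p = 0.00300 for r, exact permutation, n = 8, adjusted p = 0.138), and r was 0.76 without cows 2 and 3, while in the low group r was -0.02. The acute phase genes *HP* (r = 0.74, adjusted p = 0.451, exact permutation, n = 8) and *SAA3* (r = 0.74, adjusted p = 0.451, exact permutation, n = 8) followed in the high group. In the low group *HP* had r = 0.30 and *SAA3* r = 0.36. Leaving out 1 cow of the high group at a time, r there ran from 0.38 to 0.98 for *HP* and from 0.51 to 0.81 for *SAA3*. *SLC39A4*, a zinc importer, ran against *MT1A* in the low group (r = -0.78, adjusted p = 0.36, exact permutation, n = 8) and had r = -0.47 in the high group. *SLC30A1*, which exports zinc and, in mice, is itself a known target of MTF1, had r = 0.65 in the high group and r = 0.56 in the low group (adjusted p = 0.508 and p = 0.518, exact permutation, n = 8).

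*GPX3*, the glutathione peroxidase of plasma, had r = 0.60 and rho = 0.86 with *MT1A* in the high group (p = 0.0855 and p = 0.0107, exact permutation, n = 8, adjusted p = 0.508 and p = 0.246). Without cows 2 and 3 its r was 0.93 (p = 0.0139 before adjustment, exact permutation, n = 6), and in the low group r was 0.59. The zinc importers *SLC39A14* and *SLC39A10* had r = 0.61 and r = -0.37 in the high group and r = 0.14 and r = -0.38 in the low group. The copper transporters *ATP7B* and *SLC31A1* had r = 0.46 and r = -0.13 in the high group and r = 0.48 and r = 0.42 in the low group. Among glucocorticoid-responsive genes other than *TAT*, r was -0.36 (*PER1*) to 0.34 (*FKBP5*) in the high group, with *TSC22D3* at 0.19, and -0.37 (*FKBP5*) to -0.24 (*TSC22D3*) in the low group. *LBP* and *HAMP*, of the acute phase, both had r = 0.60 in the high group, against 0.42 and 0.17 in the low group. Of the antioxidant genes, *GCLM* had r = 0.66 in the high group and 0.53 in the low group, *NQO1* 0.21 in the high and 0.55 in the low group, and *HMOX1* -0.39 in the high and 0.42 in the low group. The ER stress genes *HSPA5*, *DDIT3* and *TRIB3* lay between -0.07 and 0.38 in the high group and between -0.52 and 0.44 in the low group. *STEAP4*, a metalloreductase, had r = -0.42 in the high group and 0.24 in the low group.

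**Figure D3:**
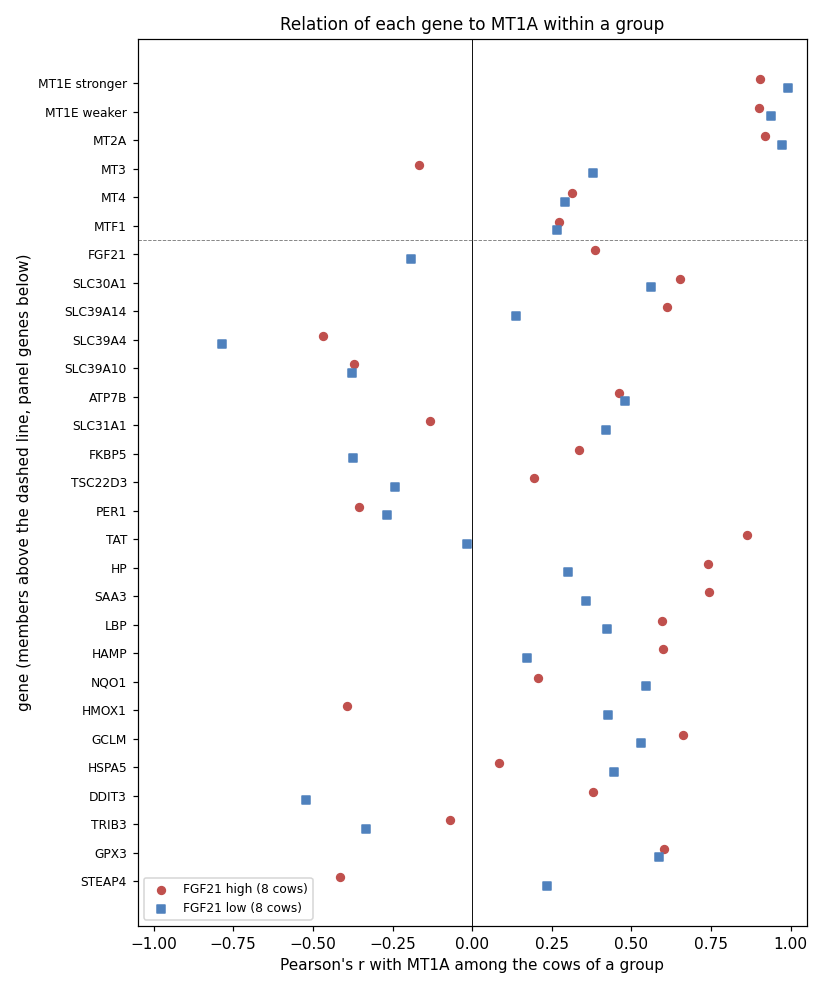
Pearson's r with MT1A (x axis) over 8 cows per group, FGF21 high as red circles and FGF21 low as blue squares, for the other clusters of the family, above the dashed line, and for 23 panel genes below it. MT1E and MT2A lie between 0.90 and 0.99 in both groups, and the panel genes spread from -0.78 to 0.86, with none passing after adjustment.

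Beyond the family, 75 of 76 genes of zinc and copper transport, glucocorticoid response, acute phase, Nrf2 defence and ER stress were measured, and for 0 of them did limma, adjusted over all clusters, call a difference at the 0.05 level, as it did for 0.0294% of all clusters. At an unadjusted p under 0.05, 15 were higher and 5 lower in the high group, where 7.42% of all clusters reached it, 2.89% higher and 4.52% lower. Because the lists were chosen with earlier results known, these counts are a description. Of 14 zinc importers, 1 was higher and 1 lower at that unadjusted threshold (median log2 fold change -0.02). *SLC39A14*, which brings zinc, iron and manganese into hepatocytes, had signals of 10.76, 11.36 and 11.49 (lowest, median and highest) in the high group, against 10.56, 10.73 and 11.02 in the low group, so the groups overlapped. Its log2 fold change was 0.47 (SE 0.10, adjusted p = 0.201, higher in 7 of 8 cows than the low mean), and without cow 2 of the high group it was 0.54 with an adjusted p of 0.0411. *SLC39A8*, another zinc and manganese importer, had a log2 fold change of -0.23 (SE 0.09, adjusted p = 0.58), and 7 of 8 high cows were below the low mean.

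Of 9 zinc exporters measured, only *SLC30A1* reached an unadjusted p under 0.05, and it was higher. Its signals were 9.35, 9.41 and 9.55 (lowest, median and highest) in the high group, against 8.67, 9.19 and 9.40 in the low group. All 8 high cows were above the low mean, with a log2 fold change of 0.28 (SE 0.09, adjusted p = 0.487). Of 11 copper genes, *CP*, the copper-carrying plasma ferroxidase, was higher at the unadjusted threshold (log2 fold change 0.23, SE 0.08, adjusted p = 0.516). The authors, in contrast, reported no difference in *CP* between the groups, and the reason for this was not tested. The median log2 fold change was 0.01 for the zinc exporters, 0.08 for the copper genes and -0.02 for all clusters.

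The lists of glucocorticoid response, acute phase, Nrf2 defence and ER stress differed in the sign of their median. Whether any of these responses bears on the metallothionein values was not tested. Several of the ER stress genes had already been reported by the authors as higher in the high group. Of 9 glucocorticoid-responsive genes, 4 were lower and 0 higher at an unadjusted p under 0.05 (median log2 fold change -0.25). Of all clusters, 4.52% were lower and 2.89% higher at that threshold. These were *KLF9* (-0.26), *TAT* (-0.33), *PER1* (-0.49) and *TSC22D3* (-0.30), with adjusted p-values of 0.538 to 0.659. *PER1* did not reach that threshold without cow 4 of the high group or without cow 3, 6 or 8 of the low group, and *TSC22D3* did not reach it when any 1 of 8 of the 16 cows was left out. Of 13 acute phase genes, 5 were higher and 0 lower (median 0.29), among them *LBP* (0.74, SE 0.25), *SAA4* (0.71, SE 0.28), *HAMP* (0.32, SE 0.13) and *ORM1* (0.22, SE 0.10), with adjusted p-values of 0.537 to 0.633. *LBP* kept an unadjusted p under 0.05 in all 26 other settings, *HAMP* and *ORM1* lost it in 5 of 26 each, and *SAA2*, the fifth, lost it in 9 of 25, among them the methods' t-test. Without cow 3 or cow 4 of the high group, or cow 7 of the low group, both *SAA2* and *ORM1* dropped out, which left 3 of the 5. Of 8 Nrf2 targets 0 were higher and 0 lower (median 0.02), and of 11 ER stress genes 7 were higher and 0 lower (median 0.31), among them *ATF4* (0.39, SE 0.09), *DDIT3* (0.26, SE 0.09), *CHAC1* (0.30, SE 0.11) and *ASNS* (0.45, SE 0.17), with adjusted p-values of 0.237 to 0.573.

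Among markers of hepatocytes and of other cells of a biopsy, 0 differed between the groups after adjustment. A few had an unadjusted p under 0.05, as 7.42% of all clusters did, and their part in the metallothionein values was not tested. The log2 fold change was above 0 for 8 of 8 endothelial and 7 of 7 macrophage markers. It was above 0 for 1 of 7 hepatocyte and 0 of 8 stellate and fibroblast markers. It was so for 5 of 6 neutrophil, 5 of 8 T and B cell, 3 of 6 cholangiocyte and 3 of 5 adipocyte markers. The remaining lists had 2 of 6 (skeletal muscle), 1 of 7 (keratinocyte) and 0 of 4 (erythroid). The share over all clusters was 43.4%. Of 8 endothelial markers measured, 2 were higher at that unadjusted threshold, and the mean over the list was 8.15 to 8.43 in high cows and 7.97 to 8.31 in low cows. Of 7 macrophage markers 1 was higher, with list means of 8.26 to 8.93 in high cows and 8.18 to 8.67 in low cows. Of 7 hepatocyte markers 2 were lower, *CPS1* (-0.21) and *APOA1* (-0.31). Of 8 stellate and fibroblast markers 1 was lower, *COL1A2* (-0.19), of 6 neutrophil markers 1 was higher, *S100A12* (0.51), and the other 5 marker lists, among them those of cholangiocytes and of T and B cells, had 0 in either direction. The 7 keratinocyte markers, relevant to *MT4*, had list means of 4.72 to 4.90 in high cows and 4.81 to 4.95 in low cows, and 1 of them, *KRT1*, was lower (-0.29, adjusted p = 0.445).

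The genes analysed around *MT1A*, *MT1E* and *MT2A* spread less among cows. Within 250000 bases on either side of the family, a window set after the values had been seen, 9 other clusters were analysed here. Their log2 fold changes were -0.35 to 0.15, 0 passed after adjustment, and 1 of them, *LOC783144* (-0.35, adjusted p = 0.346), had an unadjusted p under 0.05. The SD among cows within a group was at most 0.30 for these neighbours, against 0.84 to 1.42 for the 4 metallothionein clusters. After the group means had been subtracted, the correlation of the neighbours with *MT1A* over the 16 cows ran from -0.39 to 0.38, given as a description over cows that share processing. Within a group some values were larger: *LOC508916*, the nearest neighbour of *MT1A*, had r = 0.88 with it in the low group and 0.08 in the high group, *LOC783144* had -0.56 in the low group and 0.04 in the high group, and *OGFOD1* had 0.55 in the high group and 0.20 in the low group (n = 8 each, no test).

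**Figure D4:**
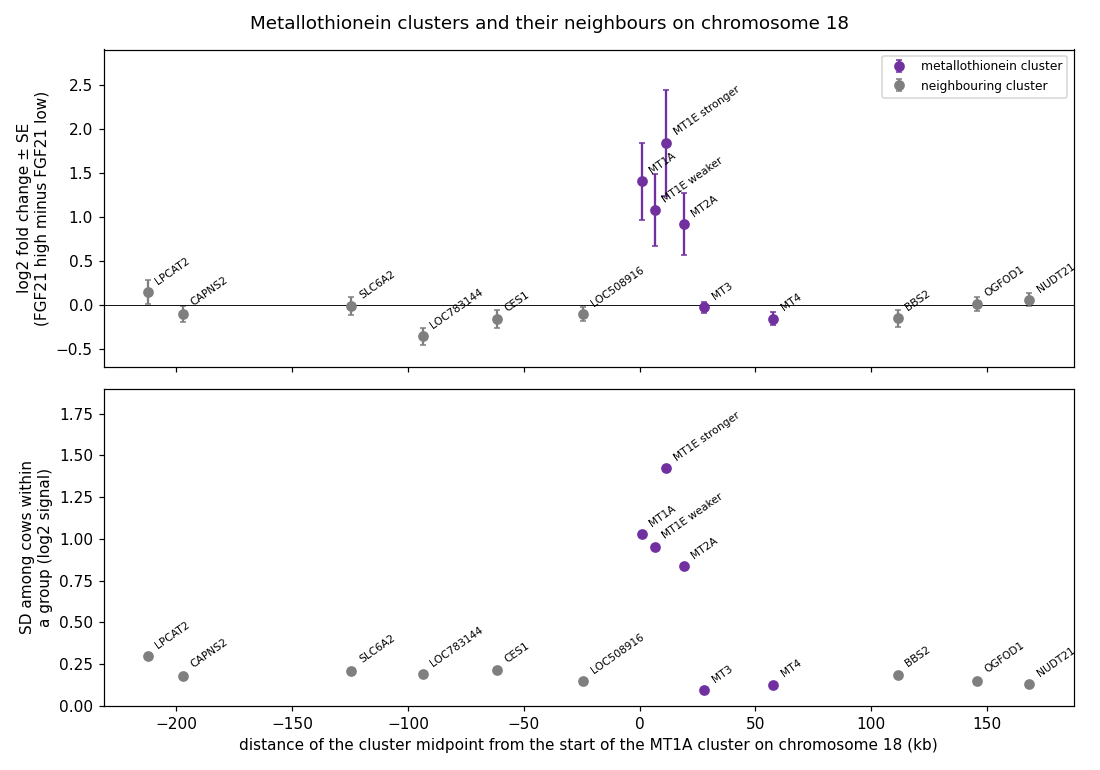
Log2 fold change with SE, FGF21 high minus FGF21 low (upper panel), and SD among cows within a group (lower panel) for the 6 metallothionein clusters (purple) and 9 neighbouring clusters (grey), by distance from the start of MT1A in kb on the x axis. MT1A, both MT1E clusters and MT2A stand at 0.92 to 1.84 with an SD of 0.84 to 1.42, while MT3, MT4 and the neighbours lie at -0.35 to 0.15 with an SD of at most 0.30.

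Over all 16 cows, with each group mean subtracted, the named clusters outside the family that were most like *MT1A* were *TRPC7*, a cation channel (r = 0.92), *HS3ST3A1*, an enzyme that sulfates heparan chains (r = 0.89), and *MAP3K2*, a kinase (r = 0.80). The stronger *MT1E* cluster (r = 0.97) and *MT2A* (r = 0.96) were more like *MT1A* than any of the 16729 named clusters outside the family, and the weaker *MT1E* cluster (r = 0.86) was so with 2 exceptions. For *MT3* (r = 0.17), *MT4* (r = 0.26) and *MTF1* (r = 0.26), between 3306 and 5106 of them were more like *MT1A*. The next were *KRT25* (0.79), *TCAF1* (0.79), *ZBTB33* (0.79), *PAG2* (0.77) and *TP53BP2* (0.77), and the most opposed were *TRPV2* (-0.83), *STOX1* (-0.78), *MCCD1* (-0.77) and *CCNO* (-0.77). These are descriptions over 16 cows, picked as the extremes of a long list. Several had low signals, such as *TRPC7* (mean 4.89 in the high group and 4.92 in the low group) and *KRT25* (4.03 and 3.91). Whether such signals were above background is not known.

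*HS3ST3A1* had signals of 5.92, 6.20 and 6.54 (lowest, median and highest) in the high group, against 5.32, 5.93 and 6.14 in the low group, with a log2 fold change of 0.36 (SE 0.13, adjusted p = 0.538). *TRPC7* followed *MT1A* within a narrow band, 4.77 to 4.97 in the high group and 4.74 to 5.08 in the low group, and its mean difference was -0.03 (SE 0.07, adjusted p = 0.951). *MTL5*, the testis-expressed metallothionein-like gene on chromosome 29 and the other row of the sheet annotated with that word, averaged 3.85 ± 0.23 in the high group and 4.03 ± 0.15 in the low group (SD, n = 8 each), a log2 fold change of -0.18 (SE 0.09, adjusted p = 0.714).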

How the data were processed

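Total RNA of liver biopsies was hybridised to 1 Affymetrix array per cow, and the deposited values are log2 signals that the authors made with RMA in Affymetrix Expression Console 1.4, per the labels. RMA corrects background, normalizes by quantiles and summarises probes. The name of the signal sheet adds SST to RMA, and what that step did to the size of differences was not examined. The sheet of 20421 transcript clusters was used, and the value table held the same log2 signals rounded to 2 decimals (largest difference 0.005). The authors' own columns of means, fold changes and p-values were not used. Groups came from the labels, with 1 cow per array and 8 per group, so the number of arrays limits the precision. The authors reported some degradation of the RNA, which by their account can lower the sensitivity and specificity of arrays. RNA integrity of single cows was not used here, and its part in the spread among cows was not tested. No sequences were used here, and 1 item among the neighbouring genes is not reported here.

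Means, SD and log2 fold changes were computed per cluster. limma 3.58.1 (lmFit and eBayes, R 4.3.3) gave standard errors and, for genes outside the family, p-values adjusted by Benjamini-Hochberg over all clusters. Correlations within groups used exact permutation over all pairings (numpy 2.4.6). Both steps were tested on simulated data. Where a listed gene had several clusters, the one with the highest mean was taken. Named in the text are all members, the panel, in each list the genes with the smallest unadjusted p under 0.05 (at most 4), and the 8 named clusters most like and the 4 least like *MT1A*. The members and lists were chosen with earlier results of these data known. Alternatives were another normalization, other tests, a replicate block, a covariate for the running number that the labels give, Spearman's rho and leaving out cows.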

Additional observations from a re-analysis of the deposited data

Results flagged for a closer look

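In 4 of 82 gene and group combinations examined, 1 cow lay apart from the other 7 of its group by more than Dixon's limit for 8 values, which chance passes in about 1 of 20. *MTF1* was 7.32 in cow 6 of the *FGF21* high group, with the other high cows at 6.93 to 7.11. In the *MT1A* panel, *HP* was 7.62 in cow 2 of the high group, against 10.39 to 12.75 in the others, and this cow was also the lowest of its group for *MT1A*. *CHAC1* was 5.43 in cow 5 of the high group, against 4.79 to 5.08, and *FKBP5*, a glucocorticoid-responsive gene, was 9.37 in cow 6 of the low group, against 5.93 to 6.88. The causes were not tested.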

How the results depend on the processing

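Leaving out each cow gave log2 fold changes of 1.17 to 1.62 for *MT1A*, 1.48 to 2.12 for the stronger and 0.90 to 1.33 for the weaker *MT1E* cluster and 0.69 to 1.09 for *MT2A*. Under all alternatives those 4 and *MTF1* were above 0 and *MT4* below 0, whereas *MT3* lay between -0.05 and 0.02. Running numbers were lower on average in the high group. With the running number as a covariate, *MT1A* was 1.72, the stronger *MT1E* cluster 2.29, the weaker 1.46 and *MT2A* 1.04. Cows with the same replicate number did not deviate together (r -0.21 to 0.13), and a replicate block, which in this balanced design leaves the mean differences as they are (*MT1A* 1.40), gave 15 list genes higher and 4 lower at an unadjusted p under 0.05. Of list genes, 5 were lower at that threshold, but 2 with the running number as a covariate, 3 with the methods' t-test, 3 with Welch's test and 3 to 6 without 1 cow (3 without cow 4 of the high group or cow 3, 6 or 8 of the low group). The number higher at an adjusted p under 0.05 was 0, or 0 to 1 without 1 cow (*SLC39A14*, without cow 2 of the high group). Of 12 pairs among the 4 variable clusters, 3 passed by Spearman's rho (0 in the high group, 3 in the low group), 2 without the 2 cows farthest from the median (0 and 2), and 6 to 12 without 1 cow (0 to 6 in the high group). With 6 cows an exact test cannot go below p = 0.00139. Without detection calls, low signals such as those of *MT3*, *MT4* and the weaker *MT1E* cluster bound no change.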
